A study of Mus musculus with 12 samples.

Results

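The transcription factors that set hepatocyte identity were examined in mouse liver by RNA-Seq. The 9 genes are Hnf4a, Foxa1, Foxa2, Foxa3, Cebpa, Cebpb, Onecut1, Nr5a2 and Prox1, each taken by its name from a table of 55385 annotated features, and all 9 were found once. The table gives TPM, a level corrected for transcript length and scaled to a fixed total of 1000000 per sample, in 12 livers of male C57BL/6 mice. Each of 3 groups held 4 mice, injected at 7 weeks of age with 500000000 plaque-forming units of adenovirus in all and sacrificed after 7 days, so that the controls were infected too. Ad-Ctrl mice received the control viruses Lac and pAdV5. Ad-shmGULL mice received a virus with an shRNA against the mouse long noncoding RNA mGULL together with pAdV5. Ad-shmGULL+hGULL mice received the same kind of knockdown virus with a virus expressing the human RNA hGULL, a rescue arm that asks whether the human transcript can stand in for the mouse one.

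The study's methods give the route of injection as intravitreal in one passage and as retro-orbital in another, and the labels do not name the shRNA. The labels number the samples without saying that each is a separate animal, so the p-values then measure only the spread between these samples, which may be technical. The level of mGULL was not analysed here, so the knockdown was not checked in these values. Its coding neighbors were tested too, though their levels do not show whether mGULL was lowered. Osgin1 had a log2 change of −0.41 (adjusted p = 0.109, limma) and Mlycd one of 0.18 (adjusted p = 0.411) in Ad-shmGULL against Ad-Ctrl. For Osgin1 all 4 knockdown mice lay below all 4 controls (exact permutation p = 0.0286), beside 8.99% of all features without overlap.

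Hepatocytes keep their character through a small network of transcription factors that bind together at liver genes and at each other's promoters. The nuclear receptor HNF4A sits at its center, the FOXA proteins open chromatin at liver enhancers, and the C/EBP proteins drive metabolic and acute phase genes. ONECUT1 acts early in liver and bile duct development, NR5A2 promotes bile acid and cholesterol handling, and PROX1 restrains HNF4A and NR5A2. In bulk liver a lower TPM can mean fewer hepatocytes or less RNA per hepatocyte, which cannot be told apart.

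Proximal promoter sequence of 3 of these genes is shown. Foxa1 was chosen as the member that differed between groups, and Onecut1 as the member that varied most between mice. Hnf4a was chosen as the member with annotated starts furthest apart, which the gene-level TPM adds together. Foxa2, Nr5a2 and Prox1 also had several annotated starts, closer together. Each run is the 250 bases before an annotated RefSeq transcript start on the GRCm38.p6 assembly, read 5′ to 3′ on the strand of the gene, with motif matches in capitals. The 4 runs are Foxa1 at chr12:57546112-57546361 (minus strand), Hnf4a at its upstream start, chr2:163506607-163506856 (plus strand), Hnf4a at its downstream start, chr2:163546905-163547154 (plus strand), and Onecut1 at chr9:74861671-74861920 (plus strand).
Foxa1: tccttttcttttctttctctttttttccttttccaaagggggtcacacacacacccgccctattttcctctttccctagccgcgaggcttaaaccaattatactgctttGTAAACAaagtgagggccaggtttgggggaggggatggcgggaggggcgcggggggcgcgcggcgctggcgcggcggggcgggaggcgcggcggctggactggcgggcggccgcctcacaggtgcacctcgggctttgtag
Hnf4a upstream start: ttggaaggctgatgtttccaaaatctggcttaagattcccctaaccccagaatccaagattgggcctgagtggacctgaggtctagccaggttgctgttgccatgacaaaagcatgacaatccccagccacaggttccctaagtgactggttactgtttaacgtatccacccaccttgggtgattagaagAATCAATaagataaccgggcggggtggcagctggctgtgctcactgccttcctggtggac
Hnf4a downstream start: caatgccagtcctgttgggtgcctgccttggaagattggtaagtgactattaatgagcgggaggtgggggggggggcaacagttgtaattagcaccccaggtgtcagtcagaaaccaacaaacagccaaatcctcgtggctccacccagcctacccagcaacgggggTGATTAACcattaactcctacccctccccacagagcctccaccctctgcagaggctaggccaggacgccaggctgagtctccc
Onecut1: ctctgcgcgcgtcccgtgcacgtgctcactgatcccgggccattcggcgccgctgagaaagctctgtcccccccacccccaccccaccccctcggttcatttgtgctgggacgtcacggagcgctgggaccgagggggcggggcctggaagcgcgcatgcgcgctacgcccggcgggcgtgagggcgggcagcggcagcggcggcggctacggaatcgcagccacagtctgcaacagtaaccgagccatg

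The capitals in Foxa1 mark TGTTTAC, a FOXA motif, on the opposite strand and beginning 141 bases before the start. The RefSeq Foxa1 gene reaches further upstream, to 57548029, so this run need not stand for every Foxa1 transcript. In the upstream Hnf4a run they mark ATNGATT, a ONECUT motif, 60 bases before the start on the opposite strand. In the downstream Hnf4a run they mark GTTAATNA, a half-site of HNF1, 83 bases before the start on the opposite strand. No capitals stand in Onecut1, since none of the 8 motifs searched on both strands matched there. All 9 genes had promoter windows of 300 bases (250 before to 50 after a start), 14 in all, and these motifs also matched at Foxa2 (ONECUT, at −213) and at Nr5a2 (the HNF1 half-site at −236 in one window and TTGCNNAA, a C/EBP motif, at −243 in another). Among all 32851 RefSeq windows of that length, the FOXA motif was found in 3.65%, the ONECUT motif in 7.42%, the HNF1 half-site in 2.54% and the C/EBP motif in 10.8%. The HNF4 motif CAAAGTCC (1.42% of all windows), the NR5A2 motif CAAGGTCA (1.56%), the cAMP response element TGACGTCA (1.79%) and its variant TGACGCAA (0.49%) matched in 0 of the 14 windows. These matches describe letters in the window and show no binding.

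All 9 genes were expressed in every mouse, with means over the 12 mice from 23.8 TPM for Foxa1 to 503 TPM for Hnf4a. Hnf4a, Cebpb and Cebpa stood at the 98.7th, 98.5th and 98.2nd percentile of mean TPM among the 16378 features with a mean of at least 1 TPM. Prox1 and Foxa3 followed at the 93.4th and 91.9th percentile, and Nr5a2, Onecut1, Foxa2 and Foxa1 lay between the 83.3rd and the 71.3rd. In Ad-Ctrl livers the order by mean TPM was Cebpb, Hnf4a, Cebpa, Prox1, Foxa3, Nr5a2, Onecut1, Foxa2 and Foxa1. The single mice separated Hnf4a from Cebpa, Cebpa from Prox1 and Foxa3 from Nr5a2, whereas Cebpb overlapped Hnf4a, Prox1 overlapped Foxa3, and each neighboring pair from Nr5a2 down to Foxa1 overlapped. The broad step in that order was from Cebpa to Prox1, a ratio of means of 3.22.

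**Figure D1:**
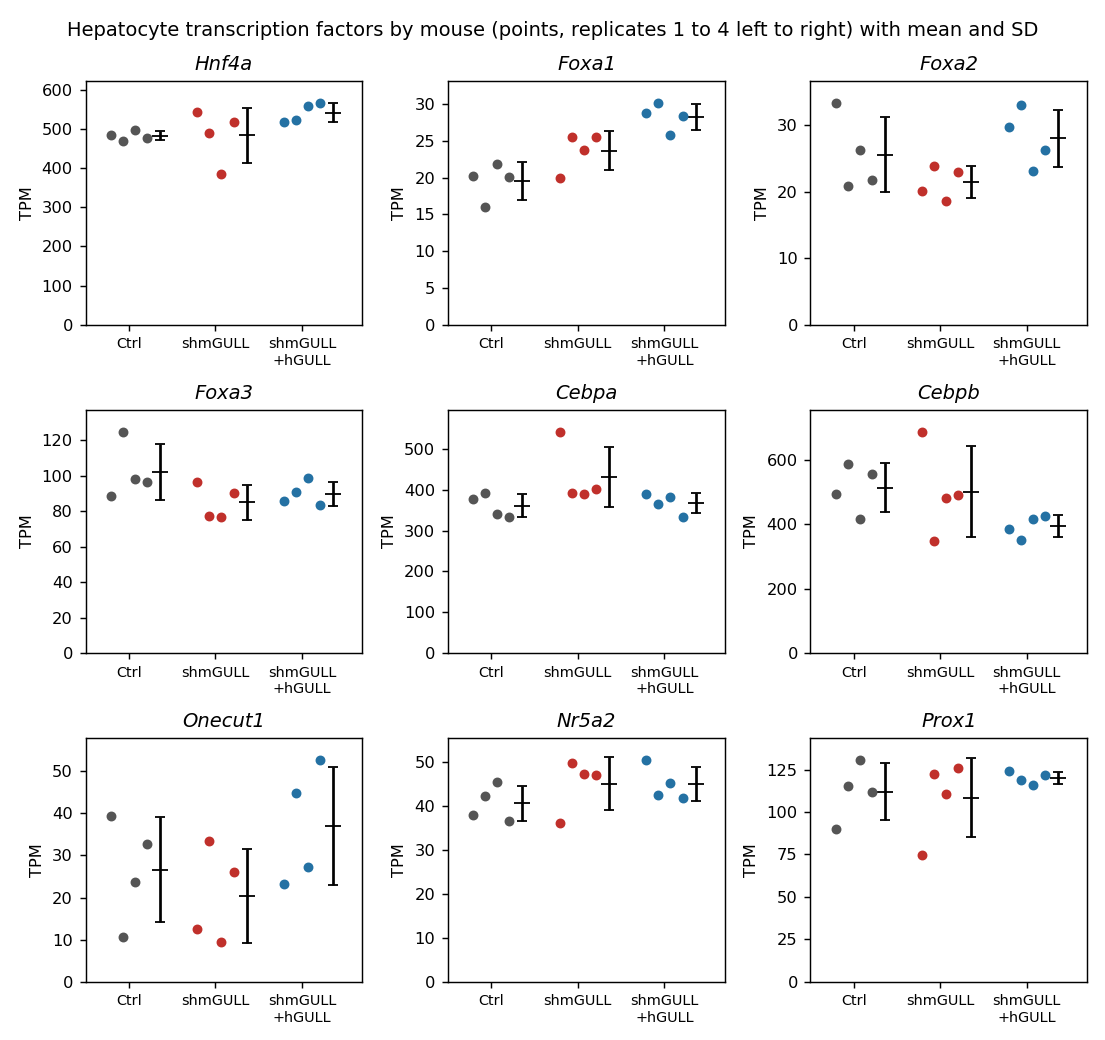
Level of each transcription factor (y axis, TPM, from 0) in the 4 mice of each group (points, replicates 1 to 4 from left to right), with the group mean and SD as bars. Foxa1 lies between 25.8 and 30.1 TPM in the rescue mice and between 15.9 and 21.9 TPM in the controls, while Onecut1 spreads from 9.50 to 52.7 TPM over the 12 mice.

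None of the 9 transcription factors passed the test after mGULL knockdown. Ad-shmGULL was compared with Ad-Ctrl in a limma fit on log2(TPM + 1) over all 16378 features, with p-values adjusted by Benjamini-Hochberg over all of them and a call at an adjusted p under 0.05. The count was 0 of 9, beside 3.23% of all tested features, and the smallest adjusted p was 0.189, for Foxa1. At the study's own threshold, a log2 change beyond 0.5 with an unadjusted p under 0.05, it was again 0 of 9, beside 7.65% of all features. Unadjusted p-values under 0.05 were found for Foxa1, Foxa3 and Cebpa, 3 of 9, beside 20.2% of all features. The mice of the compared groups overlapped for each of the 9 genes, beside 8.99% of features without overlap, and an exact permutation test of single genes gave no p under 0.0571. Mean log2(TPM + 1) was lower for 6 genes and higher for 3, and the median log2 change was −0.06 for the 9 and 0.09 for all features.

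The same held when the rescue mice were compared with the knockdown mice. Limma called 0 of 9 in Ad-shmGULL+hGULL against Ad-shmGULL, but it called 0% of all features too, with 1757 of them (10.7%) at an unadjusted p under 0.05. Foxa1 and Foxa2 were the 2 members with an unadjusted p under 0.05, 0 members passed the study's threshold beside 3% of all features, and Foxa1 alone separated the mice of both groups, beside 6.38% of all features. Means were higher in the rescue mice for 7 of 9 genes, and for 5 of 9 when samples were scaled by the median of ratios. The members' median log2 change was 0.17, and that of all features 0.09.

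Foxa1 was the 1 of 9 that passed the test between rescue and control mice. In Ad-shmGULL+hGULL against Ad-Ctrl, 2.15% of all tested features were called and 7.49% passed the study's threshold, as 1 of 9 members did, again Foxa1. Foxa1 and Hnf4a separated the mice of the 2 groups, 2 of 9 beside 22.3% of all features, a share no higher than the background. Means were higher for 7 of 9 genes in TPM but for 2 of 9, Foxa1 and Onecut1, under median-of-ratios scaling, which moved the median log2 change of all features from 0.17 to −0.01. The members' own median was 0.14 in TPM.

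Intervals show what size of change these data leave possible. The 95% interval of the fold change lay within 1.5-fold either way for 8 of 9 genes after knockdown and for 6 of 9 in each comparison with the rescue mice. Onecut1 was the gene outside that bound after knockdown, with an interval from 0.393-fold to 1.48-fold. A change on the log2(TPM + 1) scale slightly understates that of genes at low TPM. The 3 comparisons share their groups, so their values are not independent.

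**Figure D2:**
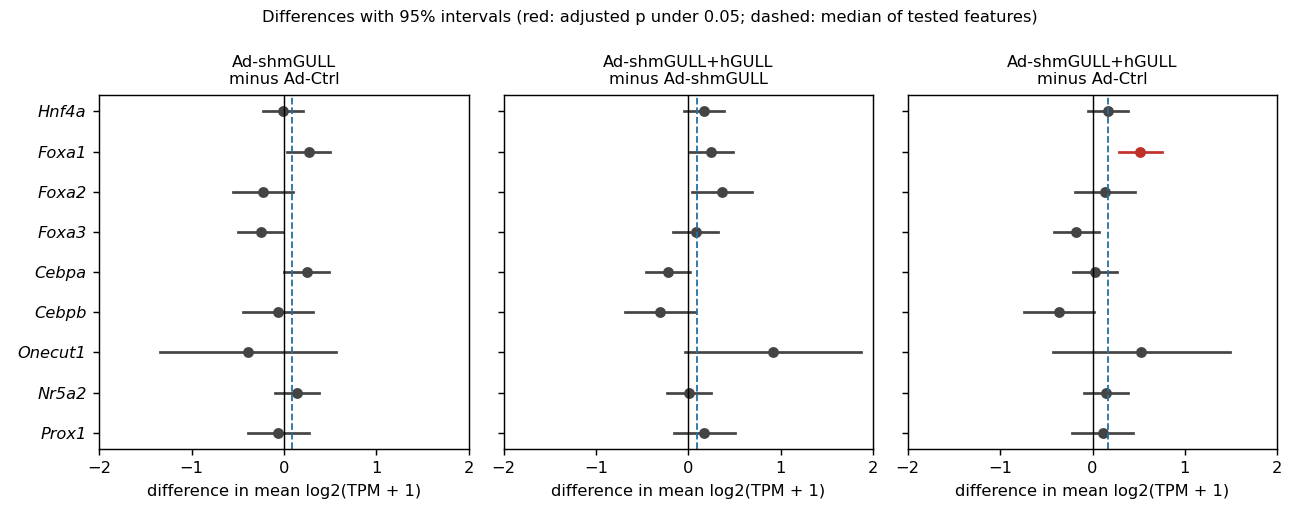
Difference in mean log2(TPM + 1) of each transcription factor (points) with its 95% interval (lines) in the 3 comparisons. The dashed line is the median over all tested features (0.09, 0.09 and 0.17), the solid line is 0, and red marks an adjusted p under 0.05, reached by Foxa1 in the rescue mice against the controls (0.52).

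Hnf4a, on chromosome 2 from 163506811 to 163572907 (GRCm38.p6), encodes the nuclear receptor at the center of the network. Its levels were 486, 470.2, 498 and 477 TPM in Ad-Ctrl, 543, 491, 385 and 517 TPM in Ad-shmGULL, and 518, 523, 559 and 566 TPM in Ad-shmGULL+hGULL. All 4 rescue mice lay above all 4 controls, while the knockdown mice overlapped both groups. The group means were 483 ± 12.1, 484 ± 69.4 and 542 ± 24.5 TPM (SD, n = 4 each). After knockdown the change was −0.01 on the log2 scale, with a 95% interval from 0.855-fold to 1.15-fold. The rescue mice differed from the controls by 0.16 (adjusted p = 0.315; exact permutation p = 0.0286, the smallest that 4 mice against 4 can give), and this turned to −0.04 under median-of-ratios scaling.

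The antisense lncRNA Hnf4aos overlaps Hnf4a from 163493804 to 163541721. It was measured at 21.7 ± 3.10, 21.1 ± 3.71 and 18.2 ± 3.49 TPM in the 3 groups, with adjusted p-values of at least 0.331. The libraries were strand-specific, but whether counting used the strand is not given in the sources used here, so reads of the overlapping genes may have been shared.

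Foxa1, on chromosome 12 from 57540628 to 57548029, encodes a pioneer factor that opens liver chromatin. Its levels were 20.2, 15.9, 21.9 and 20.1 TPM in Ad-Ctrl, 19.9, 25.5, 23.7 and 25.5 TPM in Ad-shmGULL, and 28.7, 30.1, 25.8 and 28.3 TPM in Ad-shmGULL+hGULL. Every rescue mouse was above every other mouse, and 3 of 4 knockdown mice were above all controls. The means were 19.5 ± 2.53, 23.7 ± 2.62 and 28.3 ± 1.78 TPM (SD, n = 4 each). Foxa1 rose in the rescue mice relative to the controls by 0.52 on the log2 scale (SE 0.11, 95% interval 0.28 to 0.75), or 1.43-fold (1.22 to 1.68), with an adjusted p of 0.0414 by limma and an exact permutation p of 0.0286. The steps on either side were 0.27 after knockdown (1.02-fold to 1.41-fold, adjusted p = 0.189) and 0.25 from knockdown to rescue (1.01-fold to 1.40-fold, adjusted p = 0.442), and neither passed. The mean of the rescue mice thus lay further from the controls than that of the knockdown mice.

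The Foxa1 call was close to its threshold. It was kept under 8 of 22 alternative settings and lost under 14, among them median-of-ratios scaling (0.32, adjusted p = 0.134) and quantile normalization (0.33, adjusted p = 0.132). Over all features, calls went from 352 to 11 under each of these scalings. Leaving out single mice moved the adjusted p between 0.0286 and 0.142. Without 1 of the controls 2, 3 or 4, of the rescue mice 1 to 4, or of knockdown mouse 4, it was above 0.05. The direction and the lack of overlap between the mice of both groups were kept in 22 of 22. Only the 3 other scalings could have changed either, since the remaining settings keep the order of the values.

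**Figure D3:**
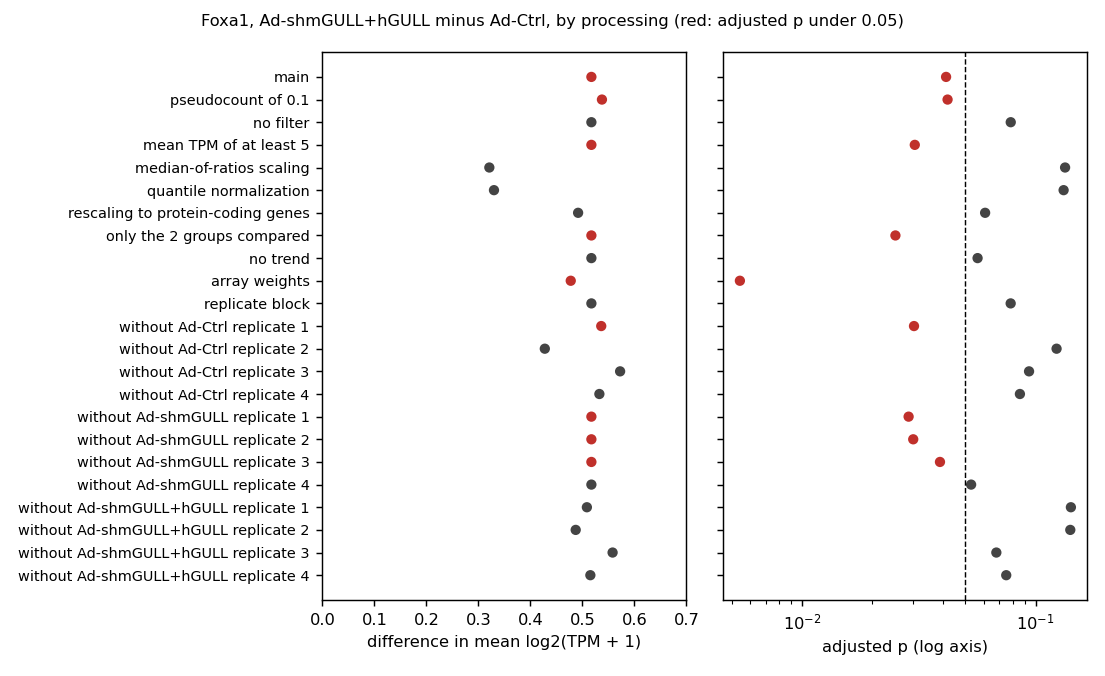
Foxa1 in Ad-shmGULL+hGULL minus Ad-Ctrl under each setting (rows): difference in mean log2(TPM + 1) on the left, from 0, and adjusted p on a log axis on the right, with a dashed line at 0.05. Red points have an adjusted p under 0.05, the difference runs from 0.32 to 0.57, and 14 of 22 alternatives lie right of the line.

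Foxa2, on chromosome 2 from 148042877 to 148046969, encodes the second pioneer factor, known for its part in lipid and bile acid metabolism. It was found at 33.3, 20.9, 26.3 and 21.8 TPM in Ad-Ctrl, at 20.2, 23.9, 18.7 and 23.0 TPM in Ad-shmGULL, and at 29.7, 33.1, 23.2 and 26.3 TPM in Ad-shmGULL+hGULL. Control mice 2 and 4 lay within the range of the knockdown mice and the others above it, and the rescue mice overlapped both groups. The differences were −0.23 after knockdown (adjusted p = 0.428), 0.37 from knockdown to rescue (1.03-fold to 1.62-fold, adjusted p = 0.422, exact permutation p = 0.0571) and 0.14 between rescue and control (adjusted p = 0.570). Without control mouse 1 they were −0.097 after knockdown and 0.27 between rescue and control, and without control mouse 2 −0.31 and 0.053.

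Foxa3, on chromosome 7 from 19013283 to 19023539, encodes the third family member and was the most abundant of the family. It stood at 88.6, 125, 98.4 and 96.6 TPM in Ad-Ctrl, at 96.6, 77.1, 76.9 and 90.3 TPM in Ad-shmGULL, and at 85.7, 91.0, 98.9 and 83.7 TPM in Ad-shmGULL+hGULL. Control mouse 2 was the highest of the 12, and the groups overlapped in each comparison. The change after knockdown was −0.25 (0.708-fold to 0.993-fold, unadjusted p = 0.0426, adjusted p = 0.227), and the rescue mice differed from the controls by −0.17 (adjusted p = 0.341), or by −0.38 under median-of-ratios scaling (adjusted p = 0.313). In TPM without control mouse 2 these differences were −0.15 and −0.075.

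Within the FOXA family the summed level was 147 ± 10.2, 130 ± 9.12 and 146 ± 6.69 TPM in the 3 groups. Foxa1 made up 13.4% ± 2.36 of this sum in Ad-Ctrl, 18.2% ± 2.56 in Ad-shmGULL and 19.4% ± 1.32 in Ad-shmGULL+hGULL (SD, n = 4 each). Its share differed by 5.98 percentage points between rescue and control mice (exact permutation p = 0.0286), by 4.86 between knockdown and control mice (exact permutation p = 0.0571) and by 1.12 between rescue and knockdown mice (exact permutation p = 0.600). A share within 1 sample does not depend on how samples are scaled. It does reuse the Foxa1 values that the fit above called. Foxa3 made up 69.1% ± 6.23, 65.3% ± 4.01 and 61.5% ± 3.67 of the sum.

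Cebpa, on chromosome 7 from 35119293 to 35121928, encodes the C/EBP protein that drives metabolic genes of the resting hepatocyte. Its levels were 378, 392, 339.6 and 333 TPM in Ad-Ctrl, 542, 392, 389 and 400.5 TPM in Ad-shmGULL, and 390.0, 365, 381 and 333 TPM in Ad-shmGULL+hGULL. Knockdown mouse 1 stood far above the rest, and the other knockdown mice lay close to the highest control. The change after knockdown was 0.25 (1.0-fold to 1.40-fold, unadjusted p = 0.0466, adjusted p = 0.239, exact permutation p = 0.0571). Without that mouse it was 0.13, smaller by more than 1.5 times. The rescue mice differed from the knockdown mice by −0.22 (adjusted p = 0.50) and from the controls by 0.03 (adjusted p = 0.895).

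Cebpb, on chromosome 2 from 167688915 to 167690432, encodes the C/EBP protein tied to acute phase responses and regeneration. It was measured at 495, 587, 415 and 556 TPM in Ad-Ctrl, at 687, 347, 481 and 490.5 TPM in Ad-shmGULL, and at 386, 352, 416 and 426 TPM in Ad-shmGULL+hGULL. The knockdown group held both the highest and the lowest of the 12 values, and 2 of 4 rescue mice lay below all controls. Means were 513 ± 75.8, 501 ± 140.1 and 395 ± 33.6 TPM. The rescue mice differed from the controls by −0.37 (0.596-fold to 1.01-fold, adjusted p = 0.208, exact permutation p = 0.0857) and from the knockdown mice by −0.30 (adjusted p = 0.538). With array weights, which give less weight to samples that deviate across all features, the difference from the controls was −0.39 with an adjusted p of 0.0433. Under that setting 3184 of 16378 features were called, beside 352 without the weights. Under the other 21 alternatives it was not called. Median-of-ratios scaling gave −0.57 (unadjusted p = 0.0241, adjusted p = 0.284), with all rescue mice below all controls and past the study's threshold. After knockdown the TPM difference was −0.06 (adjusted p = 0.883). Cebpa made up 41.4% ± 3.36, 46.7% ± 4.26 and 48.2% ± 3.21 of the Cebpa and Cebpb sum, and the exact permutation p of the rescue mice against the controls was 0.0571.

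Onecut1, on chromosome 9 from 74861921 to 74889648, encodes a cut-homeodomain factor of liver and biliary development. Its levels were 39.5, 10.5, 23.8 and 32.7 TPM in Ad-Ctrl, 12.6, 33.4, 9.50 and 26.0 TPM in Ad-shmGULL, and 23.2, 44.7, 27.3 and 52.7 TPM in Ad-shmGULL+hGULL. The mice of 1 group differed by up to 3.74-fold, and those of all groups by 5.54-fold, so the groups overlapped in each comparison. Its SD within groups, 0.73 on the log2 scale, was at the 96.5th percentile of all tested features, while the other 8 members lay between the 19.7th (Hnf4a) and the 68.9th (Cebpb). The means were 26.6 ± 12.5, 20.4 ± 11.3 and 37.0 ± 14.0 TPM. None of the differences passed: −0.39 after knockdown (adjusted p = 0.676), 0.92 from knockdown to rescue (0.973-fold to 3.67-fold, adjusted p = 0.475) and 0.53 between rescue and control (0.743-fold to 2.80-fold, adjusted p = 0.464). Leaving out single mice moved the difference after knockdown between −0.76 (without control mouse 2) and −0.10 (without knockdown mouse 3), and that between rescue and control between 0.16 (without control mouse 2) and 0.76 (without control mouse 1). Median-of-ratios scaling gave 0.33 between rescue and control (adjusted p = 0.764).

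Nr5a2, on chromosome 1 from 136842562 to 136960448, encodes an orphan nuclear receptor of bile acid and cholesterol metabolism. It was found at 37.9, 42.2, 45.5 and 36.7 TPM in Ad-Ctrl, at 36.1, 49.8, 47.3 and 47.0 TPM in Ad-shmGULL, and at 50.4, 42.6, 45.1 and 41.9 TPM in Ad-shmGULL+hGULL. Of the knockdown mice, 3 of 4 were above all controls and the other was below them. The differences were 0.14 after knockdown (0.936-fold to 1.30-fold, adjusted p = 0.511), 0.01 from knockdown to rescue (0.852-fold to 1.18-fold, adjusted p = 0.987) and 0.15 between rescue and control (0.939-fold to 1.30-fold, adjusted p = 0.409).

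Prox1, on chromosome 1 from 190118035 to 190170827, encodes a homeodomain corepressor. Its levels were 90.0, 115, 131 and 112 TPM in Ad-Ctrl, 74.6, 122, 111 and 126 TPM in Ad-shmGULL, and 124, 119, 116 and 121 TPM in Ad-shmGULL+hGULL. The rescue mice sat within 1.07-fold of each other, inside the range of the controls. The differences were −0.06 after knockdown (0.761-fold to 1.20-fold, adjusted p = 0.860), 0.17 from knockdown to rescue (adjusted p = 0.673) and 0.11 between rescue and control (adjusted p = 0.667). Prox1 also marks lymphatic endothelium. A list of 6 of its markers summed to between 38.6 and 66.5 TPM in Ad-Ctrl, 61.6 and 83.9 TPM in Ad-shmGULL, and 56.0 and 72.8 TPM in Ad-shmGULL+hGULL. In each group 3 of the 6 had a mean under 1 TPM, and the 3 tested were Reln, Lyve1 and Flt4. Reln also served as a stellate cell marker, so the sum is not particular to lymphatic endothelium. Limma called 0 of the 3 tested (2, 0 and 0 at an unadjusted p under 0.05, beside 20.2%, 10.7% and 25.3% of all features). The antisense lncRNA Prox1os, on chromosome 1 from 190170296 to 190217279, was at 15.0 ± 2.60, 16.8 ± 3.78 and 15.5 ± 2.65 TPM, with adjusted p-values of at least 0.715.

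The 9 genes did not move as one block from mouse to mouse. Among their 36 pairs, Pearson correlations of log2(TPM + 1) over the 12 mice had a median of −0.05, and 17 were above 0. Foxa2 and Onecut1 (0.723) and Nr5a2 and Prox1 (0.720) were the pairs most alike, and Foxa1 and Cebpb (−0.783) and Cebpa and Prox1 (−0.717) the most opposed. Once group means were removed these were 0.616, 0.819, −0.781 and −0.773. All points share their libraries and the fixed TPM total, and the values are descriptions across 12 mice. Knockdown mouse 1 was the highest of the 12 for Cebpa and Cebpb and the lowest for Nr5a2 and Prox1. Knockdown mouse 3 was the lowest for Hnf4a, Foxa2, Foxa3 and Onecut1.

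**Figure D4:**
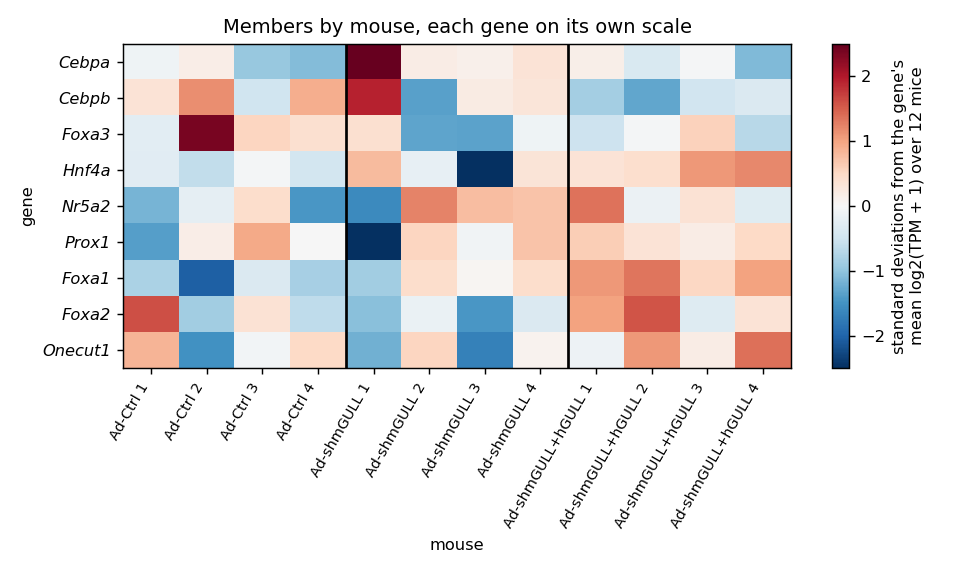
Each transcription factor (rows) in each mouse (columns, black lines between groups), as SDs from the gene's mean log2(TPM + 1) over the 12 mice. In the Ad-shmGULL 1 column Cebpa (2.71) and Cebpb (1.92) are high while Nr5a2 (−1.59) and Prox1 (−2.56) are low, and in the Ad-shmGULL 3 column Hnf4a is at −2.57.

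The features most like each member over the 12 mice were sought among all 16378 by the same correlation, given here as a description. For Foxa1 they were Ephx2, which encodes soluble epoxide hydrolase (0.963), and Gda, which encodes guanine deaminase (0.958). Prox1 was most like Cfi (complement factor I, 0.966) and Ceacam1 (0.959), and Cebpa most like Acads (short-chain acyl-CoA dehydrogenase, 0.953) and Agfg2 (0.933). Onecut1 was most like the lncRNA Gm33280 and the pseudogene Serpina4-ps1 (0.955 each). The remaining pairs were Cwc27 and Zfat for Foxa2 (0.927 each), Gpr52 and the pseudogene Gm10033 for Nr5a2 (0.924 and 0.920), Snhg9 and Camsap1 for Hnf4a (0.916 and 0.897), 1300017J02Rik and Ccs for Cebpb (0.905 and 0.900), and Enho and Sdc4 for Foxa3 (0.889 and 0.866). None of these top features was itself 1 of the 9.

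Few of a wider list of 42 other hepatocyte transcription factors were called, 1 of 39 tested after knockdown beside 3.23% of all features and 1 of 39 between rescue and control mice beside 2.15%. After knockdown 0 rose and 1 fell: Xbp1, a factor of the unfolded protein response and of lipogenesis, fell by 0.42 on the log2 scale (adjusted p = 0.0194), from 158 ± 11.8 to 117 ± 10.4 TPM. After knockdown 13 of 39 had an unadjusted p under 0.05, beside 20.2% of all features. Between rescue and control mice the called gene was higher, and the groups did not overlap for 14 of 39, each of them higher in the rescue mice, beside 22.3% of all features in either direction. Of the 3648 features in that share, 3508 were higher in the rescue mice and 140 lower. Of all 352 called features, 348 were higher. The medians of the list were 0.05, 0.07 and 0.11 in the 3 comparisons, beside 0.09, 0.09 and 0.17 over all features. From knockdown to rescue 0 of 39 were called by limma and 6 had an unadjusted p under 0.05, beside 10.7% of all features. The smallest of these were for Xbp1, at 153 ± 6.24 TPM in the rescue mice (0.39, adjusted p = 0.287), and the retinoid receptor gene Rxra (0.24, adjusted p = 0.417).

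Known targets were listed for HNF4A, FOXA, C/EBP, and NR5A2 with PROX1, but not for ONECUT1. Of each list 1 to 3 genes were called after knockdown, beside 3.23% of all features, and 1 between rescue and control mice, beside 2.15%. Of 25 targets of HNF4A, 2 rose after knockdown, Mttp, which loads lipid onto lipoproteins (0.84, adjusted p = 0.0119), and Cyp2c29, a cytochrome P450 (1.0, adjusted p = 0.0237), and 0 fell. Among 11 tested targets of the FOXA factors G6pc, the last enzyme of gluconeogenesis, rose (0.93, adjusted p = 0.00606). Of 18 C/EBP targets 2 rose, G6pc among them, and 0 fell. Of 17 tested targets of NR5A2 or PROX1, 2 rose, Mttp among them, and 1 fell, the kinase gene Plk3, by 0.67 (adjusted p = 0.0319, a call lost under 9 of 22 alternatives). Between rescue and control mice Mttp (0.71, adjusted p = 0.0390) and G6pc (0.54, adjusted p = 0.0441) were called, 1 in each list that holds them, and 0 fell. Among all 352 features called there, 348 were higher and 4 lower. The calls of Mttp and G6pc were lost under 14 of 22 alternatives each.

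At the study's threshold the target lists moved in both directions after knockdown, with 3 genes higher and 2 lower for HNF4A, 2 and 3 for FOXA, 2 and 2 for C/EBP, and 3 and 2 for NR5A2 and PROX1, beside 7.65% of all features. The medians of these lists after knockdown were −0.004 for HNF4A, 0.02 for FOXA, −0.15 for C/EBP and −0.18 for NR5A2 and PROX1, beside 0.09 for all features. From knockdown to rescue 0 targets of any list were called, with 5, 2, 2 and 3 at an unadjusted p under 0.05, beside 10.7% of all features. Among those with the smallest p in their lists were F9 (0.33, adjusted p = 0.407) for HNF4A, G6pc (−0.39, adjusted p = 0.369) and Ttr (−0.39, adjusted p = 0.458) for FOXA, G6pc and F9 again for C/EBP, and Abcg5 (0.41, adjusted p = 0.374) and Abcg8 (0.32, adjusted p = 0.404) for NR5A2 and PROX1.

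Acute phase genes, which C/EBP-beta drives, had the lowest median of the lists after knockdown, −0.41 over 19 tested genes. Of the 19, which include Il1b, Tnf, Socs3 and Cebpd, 16 were lower and 7 had an unadjusted p under 0.05, beside 20.2% of all features. The 7 include Saa3, which went the other way (0.64, adjusted p = 0.0712), with the mice of the compared groups not overlapping. Only 1 of the 19 passed, beside 3.23%: Itih3, which encodes a secreted protease inhibitor chain, fell by 1.03 (adjusted p = 0.0125), from 610 ± 78.9 to 303 ± 75.7 TPM. In the rescue mice the median was −0.21 against the controls with 0 of 19 called by limma. An unadjusted p under 0.05 was found for 3, beside 25.3% of all features, led by Saa3 (0.75, adjusted p = 0.0504) and Itih3 (−0.55, adjusted p = 0.0934). From knockdown to rescue 0 of 19 were called by limma. Here 4 had an unadjusted p under 0.05, beside 10.7% of all features, led by Orm3 (0.82, adjusted p = 0.402) and Itih3 (0.48, adjusted p = 0.404).

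Marker levels were those of liver. All 24 general hepatocyte genes had a mean above 1 TPM in each group, and together they held between 115389 and 160159 of 1000000 TPM in each mouse. Their sum spanned 120900 to 160159 TPM in Ad-Ctrl, 130906 to 143482 TPM in Ad-shmGULL and 115389 to 128879 TPM in Ad-shmGULL+hGULL, where Foxa1 and Hnf4a were high. Of the 24, 1 rose and 0 fell after knockdown, beside 3.23% of all features called. Likewise 1 rose and 0 fell between rescue and control mice, beside 2.15%.

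Markers of other cells held 1 call after knockdown and 0 in the other comparisons. Of all tested features 3.23% were called after knockdown, 0% from knockdown to rescue and 2.15% between rescue and control. The 8 liver endothelial markers summed to between 147 and 246 TPM in Ad-Ctrl, 237 and 295 TPM in Ad-shmGULL and 229 and 264 TPM in Ad-shmGULL+hGULL, and Stab2, an endothelial scavenger receptor gene, rose after knockdown (0.54, adjusted p = 0.0476), a call lost under 15 of 22 alternatives. All 8 were higher than in the controls both after knockdown (median 0.39, 6 of 8 at an unadjusted p under 0.05) and in the rescue mice (median 0.34, 5 of 8), beside medians of 0.09 and 0.17 over all features, and from knockdown to rescue the median was −0.07 (0 of 8). The 12 cholangiocyte markers summed to between 108 and 153 TPM, 111 and 201 TPM, and 145 and 175 TPM in the same order, with 0 of 8 tested genes called by limma (3, 0 and 4 at an unadjusted p under 0.05 in the 3 comparisons) and Krt23 at 1.70 between rescue and control (adjusted p = 0.0504). Markers of Kupffer cells (12 tested), of T and NK cells (13 tested) and of stellate cells (10 tested), and genes of fetal liver (3 of 10 tested), had 0 calls by limma in each comparison. At an unadjusted p under 0.05 these lists held 2, 0, 1 and 1 genes after knockdown, 1, 1, 0 and 0 from knockdown to rescue, and 1, 0, 1 and 0 between rescue and control. Of all tested features, 20.2%, 10.7% and 25.3% had an unadjusted p under 0.05 in the same 3 comparisons. Pancreatic acinar markers were listed at 0 in every mouse of a group for 9, 6 and 8 of 12 genes. The part of these cells in the Foxa1 and Hnf4a values was not tested.

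Libraries also differed in composition with the groups. The 20 highest features held 29.4% to 32.9% of TPM in Ad-Ctrl, 26.3% to 34.2% in Ad-shmGULL and 24.6% to 26.6% in Ad-shmGULL+hGULL. Median-of-ratios size factors computed from the TPM were 0.853 to 1.01, 0.918 to 1.13 and 1.04 to 1.12 in the same order. Their part in the differences between groups was not tested. TPM keep no read number, so the depth of each library is unknown.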

How the data were processed

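Liver RNA-Seq of 12 mice was grouped by the treatment named in the labels. According to the submitters' processing notes and the study's methods, the authors trimmed reads with fastp 0.23.2, checked them with FastQC 0.11.8, aligned them with HISAT2 2.2.1.0 to GRCm38.p6 and counted them on GENCODE VM24 genes with featureCounts (Subread 2.0), and the deposited values are TPM that sum to 1000000 in each sample. Depth is therefore unknown, no counting interval is given, and precision rests on the spread between 4 mice a group.

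The fits used limma 3.58.1 under R 4.3.3. They took log2(TPM + 1) of the 16378 features, of 55385, whose mean was at least 1 TPM, in 1 model of 3 groups with a mean-variance trend and no covariate. A feature was called at a Benjamini-Hochberg adjusted p under 0.05 over all tested features. The study's threshold was a log2 change beyond 0.5 with an unadjusted p under 0.05. Single genes were also tested by an exact two-sided permutation of 4 mice against 4. The fit was also run on simulated data with known changes, with the outcome not reported here.

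The members and lists were chosen with earlier results of these data known. Named beside the members were list genes with an adjusted p under 0.05 (at most 4 a list by size of change, or the 2 with the smallest p where none passed, for the transcription factor, target and acute phase lists), the 2 features most like each member, their antisense genes, and the coding neighbors of mGULL. Gene coordinates and promoter windows came from RefSeq (GRCm38.p6), which held all 9 members, with Python 3.11.15 for summaries and matplotlib 3.10.9 for figures. Alternatives were another pseudocount, other filters, 3 other scalings, the 2 groups alone, no trend, array weights, a replicate block and each mouse left out. No sample and no column was left out. Values of some list genes are not reported here.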

Additional observations from a re-analysis of the deposited data

Results flagged for a closer look

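Of 27 sets of 4 mice (9 genes in 3 groups), 1 held a mouse far from the others. Cebpa in Ad-shmGULL mouse 1 was at 541.709 TPM, above 400.5 TPM in the next mouse and 389 TPM in the lowest, so that the gap to the next mouse was 0.926 of the group's range, past Dixon's 95% critical value for 4 samples. Chance flags about 1 set in 20. The same mouse had the highest Cebpb and the lowest Nr5a2 and Prox1 of the 12, and 34.2% of its TPM lay in its 20 highest features, the highest share among the samples. The part of that share in its values was not tested. Without this mouse the difference of Cebpa between knockdown and control mice was 0.13 on the log2 scale in place of 0.25, and it was called in neither case.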

How the results depend on the processing

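Each of the 27 differences (9 genes, 3 comparisons) was recomputed under 22 alternatives, 594 values in all, of which 551 kept direction and side of the threshold. The count of members called in Ad-shmGULL+hGULL against Ad-Ctrl, 1 as reported, was 0 without the filter, with median-of-ratios scaling, quantile normalization, rescaling to protein-coding genes, no trend or the replicate block, 2 with array weights, and 0 to 1 with single mice left out. Calls over all features moved as well. They numbered 352 of 16378 as reported, 9 of 30810 without the filter, 11 with median-of-ratios scaling and 11 with quantile normalization. Rescaling to protein-coding genes gave 16, no trend 35, the replicate block 71, array weights 3184, and single mice left out 3 to 1068. At the study's threshold the comparison of rescue and control gave 0 of 9 with quantile normalization, rescaling to protein-coding genes or array weights and 0 to 1 with single mice left out, and rescue against knockdown gave 1 in place of 0 with only the 2 groups compared, and 0 to 1 with single mice left out. Over all features rescue against control held 1226 at that threshold as reported. It held 701 with quantile normalization, 1148 after rescaling to protein-coding genes and 1397 with array weights. Rescue against knockdown held 492 as reported and 516 with only the 2 groups compared. Counts of called members in the other 2 comparisons were 0 throughout. With median-of-ratios scaling the count at the study's threshold was again 1, but the gene was Cebpb (−0.57) in place of Foxa1 (0.32). The Foxa1 adjusted p was 0.0783 without the filter, 0.0608 after rescaling to protein-coding genes and 0.0565 without the trend. Why these settings moved a call was not tested, beyond the larger number of features adjusted for without a filter.

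Some small differences changed sign. Between rescue and control, median-of-ratios scaling gave −0.040 for Hnf4a, −0.058 for Foxa2, −0.18 for Cebpa, −0.054 for Nr5a2 and −0.094 for Prox1. Quantile normalization gave −0.043 for Foxa2, −0.066 for Cebpa, −0.016 for Nr5a2 and −0.022 for Prox1, and rescaling to protein-coding genes −0.0031 for Cebpa. Between rescue and knockdown, Foxa3 was −0.014 with median-of-ratios scaling, and Nr5a2 was −0.087 with it, −0.084 with quantile normalization, −0.024 after rescaling to protein-coding genes and −0.042 with array weights. After knockdown, Hnf4a was 0.014 with quantile normalization and Prox1 0.017 with array weights. With single mice left out, the sign changed for Hnf4a (−0.069 to 0.097), Cebpb (−0.23 to 0.099) and Prox1 (−0.16 to 0.10) after knockdown, for Nr5a2 (−0.094 to 0.056) from knockdown to rescue and for Cebpa (−0.0097 to 0.074) between rescue and control. The adjusted p of these differences was above 0.05 in each case.

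Same-numbered samples did not deviate together: correlations of their deviations from the group means ran from −0.244 to 0.154, 2 of 12 pairs were over 0.1, and 4 of 12 samples matched their own number best, so the numbers pair nothing. With the replicate block Foxa1 was 0.52 with an adjusted p of 0.0782, and no other call of a member changed. Depth is unknown, so small differences at low TPM were limited by the spread between mice alone.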
